A study of Mus musculus with 4 samples.

Results

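Transcript levels of 10 genes that mark the endothelium of liver sinusoids were read from whole-liver RNA of 4 aP2-SREBP-1c mice, with 1 Mouse Gene 1.0 ST array per mouse. The genes are Stab1, Stab2, Clec4g, Lyve1, Kdr, Pecam1, Oit3, Gpr182, Bmp2 and Wnt2. They were taken by name, through probe sets annotated to a single gene symbol, and make up 10 of the 19938 genes that could be named in this way. A gene with more than 1 probe set was read from the one that was brightest on average over the 4 arrays. The mice were male, on the C57Bl6 background, fed regular chow, and 24 weeks old when they were killed with CO2. All 4 carried the transgene named C57Bl6-TgN aP2-HA-hSREBP-1c-NT in the labels, in which the promoter of the adipocyte gene aP2 (Fabp4) drives an active form of human SREBP-1c. The model lacks normal adipose tissue and develops a severe fatty liver, although the study describes the transgene as silent in liver. As background, Fabp4 itself is transcribed in macrophages and in capillary endothelium as well as in adipocytes. Since the mice form 1 group, no difference between groups was tested, and the arrays of C57Bl6 and alb-SREBP-1c mice were not analysed here. Each array stands for 1 mouse, and the labels do not say whether RNA extraction or hybridisation was shared.

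Liver sinusoidal endothelial cells line the capillaries of the liver lobule, where blood meets the hepatocytes through open pores without a closed basement membrane. They clear waste such as hyaluronan, collagen fragments and oxidised lipoproteins from blood by receptor-mediated uptake, and they release signals to hepatocytes, among them Bmp2, which raises the iron hormone hepcidin, and Wnt ligands, which keep the gene programme around the central vein. In diseased liver these cells can lose their pores and take on features of ordinary capillaries, a process called capillarization. In whole-liver RNA, fewer cells of a type and less RNA per cell cannot be told apart.

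Values are log2 expression values as deposited, so that a difference of 1 is a doubling. The signal of a probe set also depends on how well its probes bind, and levels were therefore compared between mice and not between genes. Genes were taken as above background if every array showed them over a limit, set at the 95th percentile of 1205 receptor probe sets of the olfactory and vomeronasal families, whose transcripts liver lacks. These limits were 5.52, 5.36, 5.35 and 5.33 in mice 1 to 4, and 12254 genes lay above them. A gene was counted as variable when its highest mouse exceeded its lowest by more than 1.5-fold. Mouse 1 stood apart from the others, as it was the lowest of the 4 mice for 46.2% of the genes above background. Without mouse 1 the number of variable genes dropped from 1581 to 343, and no gene list described below, other than the acinar one, then held more than 1 variable gene. Transcripts of the exocrine pancreas also differed between the livers. The mean level of 10 acinar markers was 8.19 and 7.98 in mice 1 and 4, against 6.12 and 6.44 in mice 2 and 3, and their part in the values below was not tested.

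All 10 sinusoidal genes were above background on all 4 arrays, with the defining markers Stab2 and Clec4g among them. Only Lyve1 was variable. For comparison, 12.9% of all genes above background were variable. The median of the 10 SDs between mice was 0.15, and the median SD of all genes above background was 0.15 as well. The median range from the lowest to the highest mouse was 0.33 for the 10 genes, or 1.26-fold, and 0.34 for all genes above background. Among the 9827 genes with mean levels between those of Wnt2 and Clec4g, the share of variable genes was 13.2%. The spread of the group as a whole therefore lay close to that of the other genes on the arrays.

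**Figure D1:**
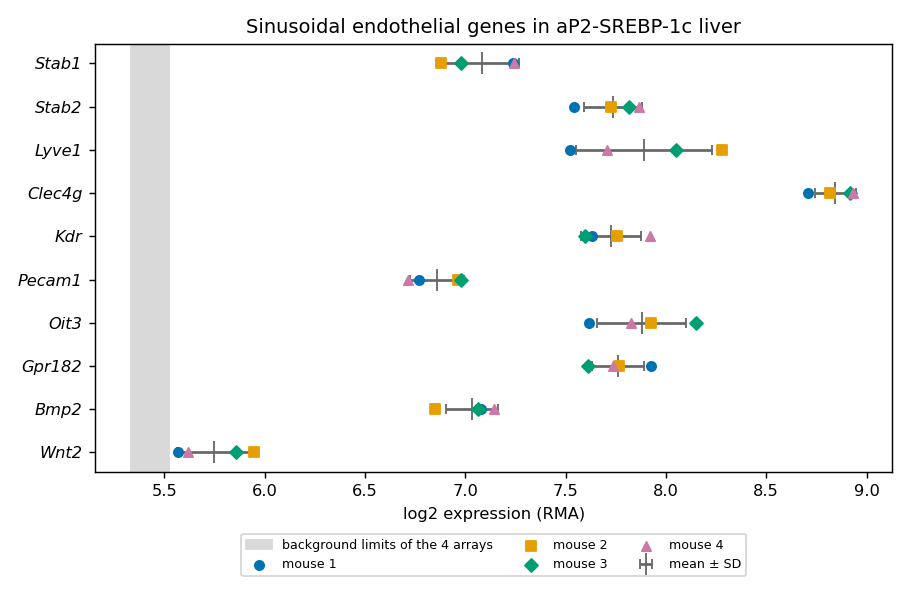
Log2 expression level of each of the 10 sinusoidal endothelial genes, with 1 symbol per mouse, the mean and the SD (n = 4) as bar and whiskers, and the background limits as reference. All values lie above the limits, and the mouse 1 value of Wnt2 is the closest to its limit, 0.04 above it.

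Receptors that clear waste from blood are the best known markers of this endothelium. Stab2 encodes stabilin-2, the main hyaluronan receptor of these cells, and its levels were 7.54, 7.73, 7.81 and 7.87 in mice 1 to 4. The mean was 7.74 ± 0.14 (SD, n = 4), with a 95% confidence interval of 7.56 to 7.91. Mouse 1 was the lowest and mice 3 and 4 the highest, but the whole range of 0.33 corresponds to 1.26-fold. Clec4g encodes LSECtin, a lectin that binds viral and cellular sugar chains, and gave 8.71, 8.82, 8.92 and 8.93, with a mean of 8.84 ± 0.10 (SD, n = 4). As for Stab2, mouse 1 was the lowest and mice 3 and 4 were nearly equal. Its range of 0.22 was the smallest of the 10 genes in the values as deposited and after quantile normalization, but with each array centred on its median the range was 0.30 and that of Gpr182 was 0.23. Quantile normalization narrowed the ranges of Clec4g to 0.09, with mouse 2 then the lowest, and of Stab2 to 0.17. A second probe set annotated to Clec4g was not above background, with 5.35, 5.15, 4.78 and 4.58, so that the level of this gene rests on the first.

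The promoters of these 2 genes are shown because Stab2 and Clec4g, markers more specific to sinusoidal endothelium than Kdr or Pecam1, also had the closest pair of profiles over the 4 mice. That closeness is not particular to them, since 29.6% of other genes lay within 0.1 of Clec4g by the measure given below. Each sequence is the 250 bases before 1 start annotated by RefSeq on GRCm38.p6, printed 5′ to 3′ on the strand of the gene. The outermost bounds of both genes reach further upstream than the start used here, so that the last 96 bases shown for Stab2 and the last 44 for Clec4g lie within those bounds. Capitals mark AGGAAG, a longer form of the GGAA core bound by ETS factors, many of which act in endothelium, or its reverse complement CTTCCT. Other forms of the core also occur in these sequences and were neither marked nor counted. Stab2 lies on the minus strand with this promoter at chr10:87007943-87008192, and that of Clec4g, also on the minus strand, is at chr8:3720652-3720901.
Stab2: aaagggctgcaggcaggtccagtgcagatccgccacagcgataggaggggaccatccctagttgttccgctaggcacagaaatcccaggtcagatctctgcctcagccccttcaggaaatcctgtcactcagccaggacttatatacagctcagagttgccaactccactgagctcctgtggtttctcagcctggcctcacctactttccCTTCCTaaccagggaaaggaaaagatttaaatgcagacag
Clec4g: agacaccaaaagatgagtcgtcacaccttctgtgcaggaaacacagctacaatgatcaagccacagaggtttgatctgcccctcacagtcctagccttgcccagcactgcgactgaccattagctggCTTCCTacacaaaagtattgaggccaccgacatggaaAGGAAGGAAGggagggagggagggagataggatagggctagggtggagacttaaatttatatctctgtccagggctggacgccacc
Stab2 had 1 match, 40 bases before the start used, on the opposite strand. Clec4g had 3 matches, of which those at 86 and 82 bases before the start overlap and the one at 123 bases lies on the opposite strand. A promoter entry was at hand for 5 of the 10 genes, namely Stab1, Stab2, Clec4g, Kdr and Wnt2. On either strand of the 250 bases, AGGAAG was present in 3 of these 5 and in 29.5% of 32851 promoters. The letters GATAA, 1 form of the GATA core, were present in 1 of the 5, Wnt2, and in 22.6% of promoters. The form GATAG occurs in the printed sequences of Stab2 and Clec4g and was not counted. The MAF core TGCTGA was present in 1 of the 5, Stab1, and in 16.1% of promoters. Matches to such short letters are a description of the sequence and not of binding.

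Stab1, which encodes the related stabilin-1 and is also made by macrophages, had levels of 7.24, 6.88, 6.98 and 7.24. Here mice 1 and 4 were the high ones and mouse 2 the lowest, a pattern unlike that of Stab2, and the mean was 7.08 ± 0.19 (SD, n = 4). Lyve1 encodes another hyaluronan receptor, shared with lymphatic endothelium and some macrophages, and its levels were 7.52, 8.28, 8.05 and 7.71. Mice 2 and 3 were above mice 1 and 4, and the range of 0.76, or 1.69-fold, was the widest of the 10 genes. The mean of Lyve1 was 7.89 ± 0.34 (SD, n = 4), and this SD exceeded those of 95.6% of the genes above background. Both ends of the range carry this call, since it fell to 0.57 without mouse 1 and to 0.53 without mouse 2, below the 0.58 that corresponds to 1.5-fold. With quantile normalization of the 4 arrays the levels of Lyve1 were 7.62, 8.27, 7.98 and 7.67, and the range was 0.65.

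Genes used as lymphatic markers were set beside Lyve1. The lymphatic gene Mmrn1 was not above background on any array, with 3.82, 3.56, 3.61 and 3.93. Pdpn, encoding podoplanin, gave 6.30, 6.63, 6.63 and 6.35, with mice 2 and 3 again above mice 1 and 4. Flt4, the receptor for lymphatic growth factors that sinusoidal cells also carry, gave 6.24, 6.65, 6.46 and 6.36. Prox1, a lymphatic regulator that hepatocytes express too, gave 8.05, 8.66, 8.67 and 8.42. It was the single variable gene among the 3 of 4 measured lymphatic markers above background, which is 33.3% beside 12.9% of all genes. Prox1 was not variable after quantile normalization or without mouse 1. The mean level of the 3 lymphatic markers above background ranged from 6.86 in mouse 1 to 7.31 in mouse 2. Flt4 and Prox1 among them are also carried by other liver cells, and the part of these markers in the values of Lyve1 was not tested.

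Kdr and Pecam1 belong to endothelium in general. Kdr encodes VEGF receptor 2, through which VEGF maintains the sinusoidal lining, and its levels were 7.63, 7.76, 7.59 and 7.92. Mouse 4 was the highest and mouse 3 the lowest, with a range of 0.33 and a mean of 7.73 ± 0.15 (SD, n = 4). Pecam1 encodes an adhesion molecule of endothelial junctions that platelets and leukocytes carry as well, and gave 6.77, 6.97, 6.98 and 6.71. Mice 2 and 3 were nearly equal and above mice 1 and 4, with a mean of 6.86 ± 0.13 (SD, n = 4) and a range of 0.26.

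Oit3 encodes a secreted protein with a zona pellucida domain, and its levels were 7.62, 7.93, 8.15 and 7.82. Mouse 3 was the highest and mouse 1 the lowest, the mean was 7.88 ± 0.22 (SD, n = 4), and the range of 0.53, or 1.45-fold, was the second widest of the group and just inside the limit of 1.5-fold. When each array was centred on its median, the range of Oit3 was 0.62 and passed that limit, while after quantile normalization it was 0.35. Gpr182 encodes an atypical chemokine receptor of sinusoidal and lymphatic endothelium, and gave 7.93, 7.77, 7.61 and 7.74. It was the only one of the 10 genes with its highest value in mouse 1, while mouse 3, the highest for Oit3, was the lowest, and the mean was 7.76 ± 0.13 (SD, n = 4). After quantile normalization mouse 1 was the highest for Stab1 and Bmp2 as well.

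**Figure D2:**
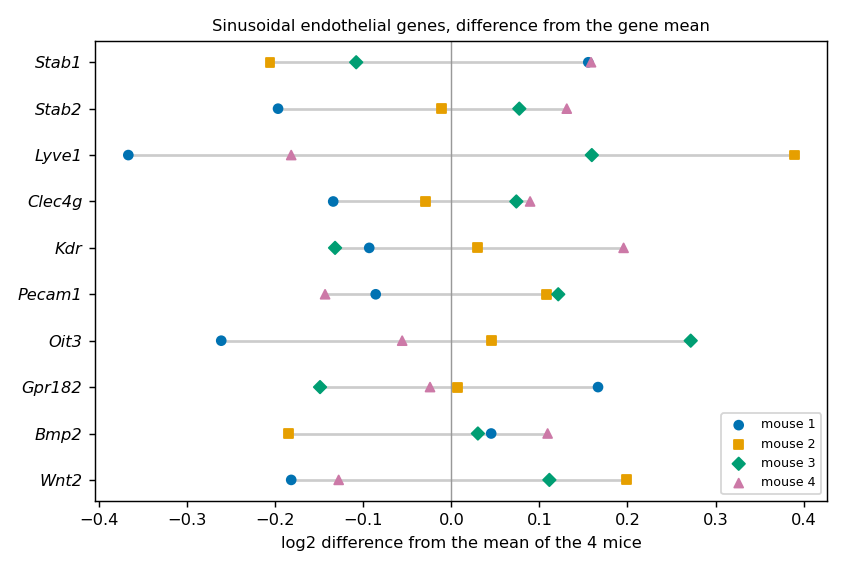
Difference of each mouse from the mean of the 4 mice, in log2 units, for the 10 sinusoidal endothelial genes, with 1 symbol per mouse. Lyve1 shows the widest spread, and the order of the mice differs between genes.

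No single order of the mice ran through the group. Mouse 1 was the lowest of the 4 for 5 of the 10 genes, Stab2, Clec4g, Lyve1, Oit3 and Wnt2, beside 46.2% of all genes above background. This number was 7 when each array was centred on its median and 4 after quantile normalization, with 55.9% and 36.1% of all genes. Mouse 4 was the highest for 5 of the 10, Stab1, Stab2, Clec4g, Kdr and Bmp2, beside 24.9% of all genes, and for 3 of the 10 after quantile normalization, with 22.9%. Set against the mean of the other mice, the median difference of the 10 genes was -0.15, 0.02, 0.10 and 0.04 in mice 1 to 4, and the same median over all genes above background was -0.08, 0.03, 0.05 and 0.02. After quantile normalization all these differences were small, with -0.03, 0.01, 0.01 and -0.02 in mice 1 to 4, that of mouse 4 having turned its sign, beside -0.02 for all genes in mouse 1.

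The likeness of profiles was measured as the root mean square difference between centred values over the 4 mice. Of the 45 pairs among the 10 genes, 3 lay within 0.1, which were Stab2 and Clec4g with 0.04, Pecam1 and Wnt2 with 0.07, and Stab1 and Bmp2 with 0.09. The median pair differed by 0.20, and the least alike, Stab1 and Lyve1, by 0.45. Profiles over 4 mice are easily matched by other genes. The profile of Stab2 had 2972 of 12244 other genes within 0.1, or 24.3%, led by Ap2m1 (0.0036), Usp6nl (0.0085) and Ppip5k2 (0.0086). For Wnt2, 12.0% of the other genes lay within 0.1, led by Rab30 (0.0091), Mbd3 (0.0164) and Slc4a1ap (0.0165). For Lyve1 only 1.24% did, the smallest share of the 10 genes, and for Clec4g 29.6% did, the largest. Pairs within 0.1 were thus not particular to the 10 genes.

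**Figure D3:**
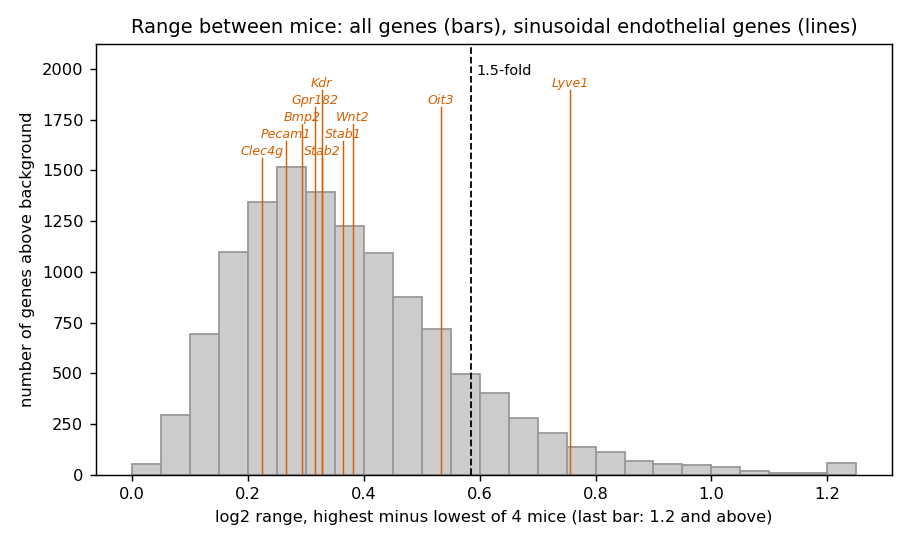
Number of genes above background (y axis) by their log2 range between the highest and the lowest mouse (x axis), with lines at the ranges of the 10 sinusoidal endothelial genes and at 1.5-fold. Lyve1, at 0.76, lies beyond the 1.5-fold line, Oit3 lies just below it at 0.53, and the other lines run from 0.22 to 0.38.

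Bmp2 is the ligand through which sinusoidal cells, together with Bmp6, control hepcidin in hepatocytes. Its levels were 7.08, 6.85, 7.06 and 7.14, with mouse 2 below the other mice and a mean of 7.03 ± 0.13 (SD, n = 4). Bmp6 gave 6.97, 6.63, 6.70 and 6.66, so that here mouse 1 was the high one. Hamp, the gene of hepcidin, gave 13.22, 13.09, 13.11 and 13.28, a range of 0.20, with mouse 2 the lowest and mouse 4 the highest as for Bmp2. All 18 listed genes of the path from BMP ligand to hepcidin were above background, and 2 were variable, which is 11.1% beside 12.9% of all genes. Both are known as targets of BMP signalling. Id3 gave 8.26, 7.64, 7.66 and 8.02, while Atoh8 gave 6.99, 7.58, 7.55 and 7.36, the opposite order of mice 1 and 2. Id1, a common readout of BMP signalling, had 7.29, 6.91, 6.91 and 7.24, with mice 1 and 4 above mice 2 and 3 as for Id3, and a range of 0.38. The least variable gene was Id2 at 11.33 ± 0.03 (SD, n = 4). Without mouse 1 none of the 18 was variable, and without mouse 2 or after quantile normalization only Id3 was. When each array was centred on its median, Bmpr2, a BMP receptor, was variable in place of Id3.

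Wnt2 is made by the endothelium around the central vein and acts on neighbouring hepatocytes. Its levels were 5.57, 5.95, 5.86 and 5.62, with mice 2 and 3 above mice 1 and 4, a mean of 5.75 ± 0.18 (SD, n = 4) and a range of 0.38. The level was low, 0.36 above the mean limit and 0.04 above it in mouse 1, and Wnt2 was no longer above background when the limit was set at the 99th percentile. Wnt9b, the second ligand of the central vein, gave 6.29, 6.08, 6.17 and 5.92, and Rspo3, which strengthens Wnt signals, gave 6.61, 6.85, 6.81 and 7.01. Mouse 1 was thus the lowest for Wnt2 and Rspo3 but the highest for Wnt9b. The other genes of the pericentral endothelium were Kit, a growth factor receptor, with values from 5.62 to 5.95, Cdh13, a cadherin, from 5.76 to 6.05, and Lhx6, a transcription factor, from 6.61 to 6.84. Thbd, encoding thrombomodulin, was not above background in mouse 1 at 5.50. None of the 5 pericentral endothelial genes above background was variable.

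The receptors and hepatocyte targets of Wnt signalling had a median SD of 0.20, beside 0.15 for all genes above background. Of 22 such genes above background, 7 were variable, which is 31.8% beside 12.9% of all genes. In 14 of the 22 mouse 1 was the lowest, as it was for 46.2% of all genes. Lect2, a secreted hepatocyte protein, gave 9.14, 10.12, 10.03 and 9.56. Slc1a2, a glutamate transporter of the central zone, gave 7.54, 8.46, 8.28 and 7.89, and Glul, the glutamine synthetase of the cells next to the central vein, gave 10.49, 11.30, 11.38 and 11.02. In all 3 of these genes mouse 1 was the lowest, mouse 4 came next, and mice 2 and 3 were the highest, the same order of pairs as in Wnt2. How many of all genes have this order was not counted. It also held outside this list, as for Cd36, Lrat and Dcn, and not throughout it, as Nkd1 and Notum were the highest in mouse 1. A relation of Wnt2 to these targets was not tested. Axin2, a general target of the pathway, was not above background in mouse 1 and gave 5.29, 6.29, 6.35 and 6.06. Among the receptors, Fzd4 was nearly the same in all mice at 7.35 ± 0.02 (SD, n = 4). The median difference of the 22 genes in mouse 1 was -0.36, beside -0.08 for all genes above background. After quantile normalization it was -0.23, beside -0.02 for all genes. Without mouse 1 only 1 of 23 was variable, beside 2.69% of all genes above background.

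**Figure D4:**
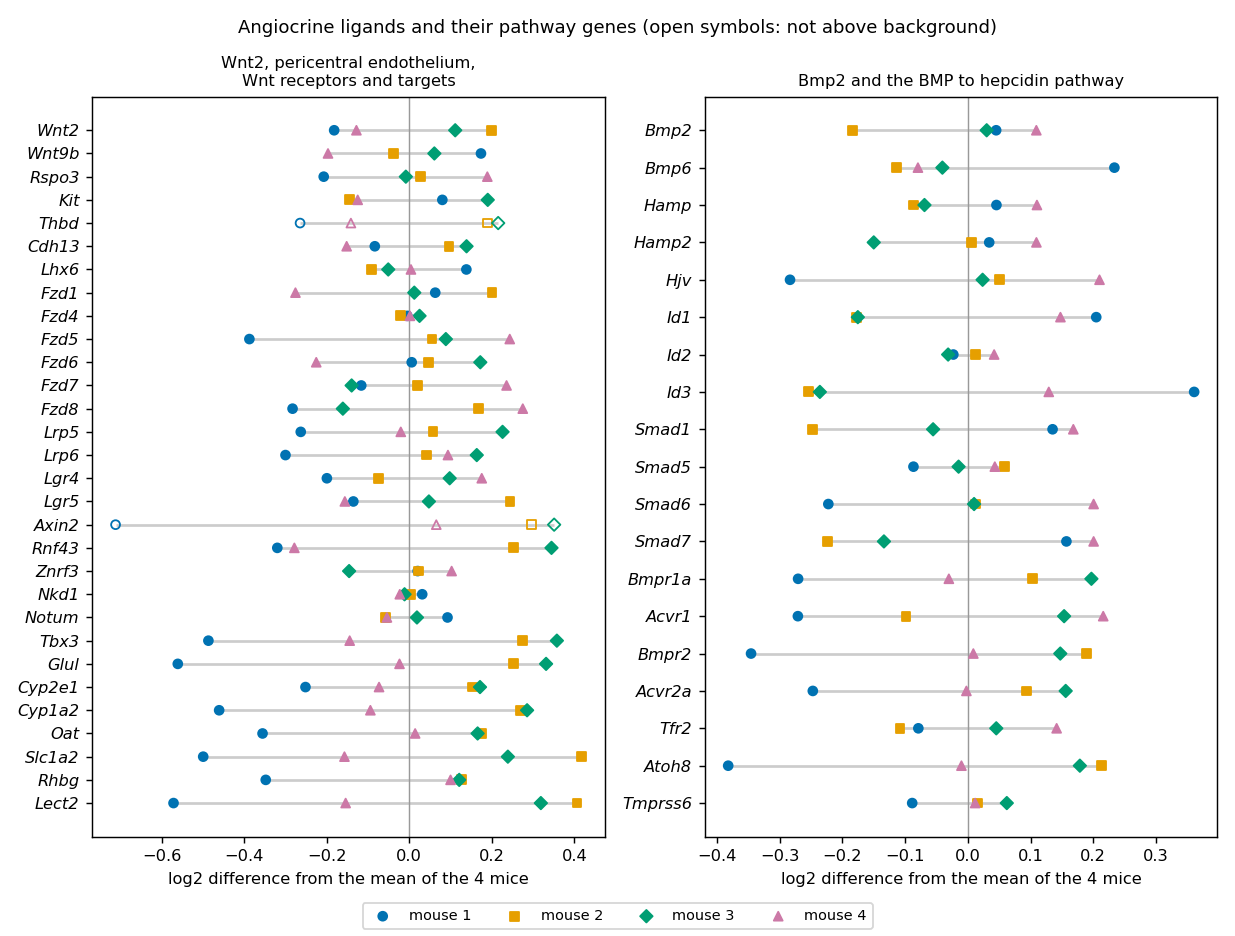
Difference of each mouse from the mean of the 4 mice, in log2 units, for Wnt2 with pericentral endothelial genes and Wnt receptors and targets (left) and for Bmp2 with genes of the path to hepcidin (right), with open symbols for genes not above background on all arrays. Mouse 1 lies lowest for many Wnt targets, among them Glul, Slc1a2 and Lect2, but highest for Notum and Nkd1. In the right panel it is the highest for Id3 and the lowest for Atoh8.

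Signals that act on sinusoidal cells were measured too. Vegfa, the ligand of Kdr, gave 8.96, 8.91, 8.88 and 9.01, with a range of 0.13. None of the 9 genes above background among the 12 listed VEGF and angiopoietin genes was variable, and Pgf, Angpt1 and Angpt2 were not above background on all arrays. When each array was centred on its median, 2 of the 9 were variable, the coreceptors Nrp1 and Nrp2, which is 22.2% beside 16% of all genes. Of 5 genes that respond to blood flow, 2 were above background, of which Nos3, the endothelial nitric oxide synthase, gave 6.53, 6.15, 6.17 and 5.93 and was variable at 1.51-fold. This 1 of 2 is 50% beside 12.9% of all genes. Nos3 was not variable without mouse 1, without mouse 4 or with each array centred on its median. Klf2, a flow-induced transcription factor, gave 6.94, 7.01, 6.73 and 6.63. For both flow genes mouse 4 was the lowest, and the share of all genes lowest in mouse 4 was not counted.

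A further 16 genes known from sinusoidal endothelium were all above background. Of them 3, or 18.8%, were variable, beside 12.9% of all genes. Ehd3, a protein of endocytic membranes, gave 8.66, 9.44, 9.29 and 9.09, with mouse 1 the lowest. Tfec, a transcription factor, gave 6.64, 5.90, 6.23 and 6.16, with mouse 1 the highest. Cyp4b1, an enzyme of fatty acid hydroxylation, gave 7.46, 7.27, 6.85 and 7.66, with mouse 3 the lowest. Gata4, the factor that sets the sinusoidal identity of these cells, was nearly constant at 7.51 ± 0.04 (SD, n = 4). Mouse 1 was the lowest for 11 of the 16 genes, beside 46.2% of all genes above background. The number of variable genes was 6, or 37.5%, when each array was centred on its median, beside 16% of all genes. Without mouse 1 it was 1, or 6.25%, beside 2.69% of all genes.

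Markers shared by all endothelium had a median SD of 0.14. All 19 were above background, and Nos3 was the only variable one, which is 5.26% of the list beside 12.9% of all genes. It was no longer variable without mouse 1, without mouse 4 or with each array centred on its median, where Emcn, an endothelial sialomucin, was variable instead, and after quantile normalization 2 were, Nos3 and Mmrn2, a matrix protein of vessels. Cldn5, a protein of tight junctions, stood at 6.80 ± 0.03 and Egfl7, a factor secreted by endothelium, at 7.04 ± 0.03 (SD, n = 4 each). Genes of continuous capillaries, which rise when sinusoids capillarize, were present as well, with 8 of 10 above background and none variable. Cd34 and Meox2 were the exceptions that did not pass the limits on every array. Vwf, the von Willebrand factor, stood at 5.98 ± 0.05 (SD, n = 4). Fabp4, whose promoter drives the transgene, gave 6.22, 6.29, 6.28 and 6.32, above background in every mouse with a range of 0.10. Without mice lacking the transgene, these levels do not show whether the continuous genes are raised.

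All 7 listed genes of the endothelium near the portal vein were above background. Efnb2, an arterial ligand of Eph receptors, was variable at 6.08, 6.36, 6.70 and 6.45, as 1 of the 7, or 14.3% beside 12.9% of all genes. Without mouse 1 or without mouse 3 none of the 7 was variable, and with each array centred on its median both Efnb2 and Efnb1 were. Dll4, a Notch ligand, gave 6.33, 5.77, 5.88 and 6.16, a range of 0.56, with mouse 1 the highest where it was the lowest for Efnb2. Values ran from 6.79 to 7.33 for Efnb1, a second ephrin, and from 6.39 to 6.85 for Jag1, a second Notch ligand. The matrix genes Ltbp4 and Ntn4 ran from 6.79 to 7.09 and from 6.47 to 6.99, and the scavenger receptor Msr1 from 7.05 to 7.35. Mouse 1 was the highest for 4 of the 7 genes.

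Scavenger and endocytic receptors other than the stabilins are carried by several liver cells. Of 12 listed, 10 were above background and 3 were variable, which is 30.0% beside 12.9% of all genes. With each array centred on its median 5 were variable, after quantile normalization only Marco was, without mouse 3 only Cd36 and Marco were, and without mouse 1 none was. Marco, a receptor of Kupffer cells, gave 7.06, 6.31, 6.14 and 6.63, with mouse 1 the highest. Cd36, a receptor for fatty acids and oxidised lipoproteins that hepatocytes of fatty livers also carry, gave 9.11, 9.85, 9.92 and 9.41, and Colec12, a collectin, gave 8.70, 9.18, 9.34 and 9.18. For both of these mouse 1 was the lowest, as for Stab2. Lrp1, the broad endocytic receptor of hepatocytes, was the least variable at 10.04 ± 0.07 (SD, n = 4). Cd209a and Cd209b, lectin genes related to Clec4g, were not above background on all arrays.

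Markers of the other cells of the sinusoid were read from the same arrays. All 12 Kupffer cell markers were above background, with mean levels from 7.47 to 7.61 in the 4 mice. Of these 3 were variable, which is 25% beside 12.9% of all genes. Besides Marco, which was the highest in mouse 1, C1qb and Vsig4, a complement component and a complement receptor, were the lowest in mouse 1 at 8.00 and 7.90. All 11 stellate cell markers were above background, with mean levels of 7.66, 7.96, 7.94 and 7.77. Of these 3 were variable, which is 27.3% beside 12.9% of all genes. Lrat, which stores vitamin A in these cells, gave 8.29, 9.23, 9.33 and 8.84, and Dcn, encoding decorin, gave 10.74, 11.58, 11.63 and 11.25. Col1a1, encoding a fibrillar collagen, gave 7.33, 7.94, 7.68 and 7.39. In all 3 genes mice 2 and 3 were above mice 1 and 4, as they were for Lyve1, Pecam1 and Wnt2. This order also held for Reln, Pdgfrb, Hgf and Col3a1. In Ecm1, Colec11 and Rgs5 mice 1 and 4 were instead above mice 2 and 3, and Des had neither order. The share of all genes with this order was not counted. Vsig4 and Col1a1 were not variable after quantile normalization, and none of the Kupffer or stellate markers was without mouse 1. Hepatocyte markers had a median SD of 0.05 over 10 genes with none variable. Of the lymphocyte markers 2 of 8 measured were above background, of the cholangiocyte markers 3 of 5, and of the blood cell markers 3 of 4, with Itga2b of platelets variable at 6.29, 5.50, 5.86 and 5.66. The part of these cell types in the values of the sinusoidal genes was not tested.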

How the data were processed

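Liver RNA of 4 mice was hybridised to 1 array each. The deposited values are log2 signals that the authors obtained by robust multi-array averaging (RMA). The submitters' processing notes name Affymetrix Expression Console, and the sample labels name the TAC software. Not given in the sources used here are a genome build and the set of arrays normalized together. The table holds 35556 probe sets, of which 21789 had 1 symbol in the platform annotation, 1621 had several and 12146 were unnamed here. Symbols were updated through gene identifiers to RefSeq on GRCm38.p6, from which the promoters also came. For 999 genes with several probe sets, the brightest on average was taken. Correlations between arrays across genes were 0.974 to 0.993, and no pair of arrays shared identical values in more than 25 probe sets. Their number, 4, limits the precision.

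SDs were taken on the log2 scale, and 95% confidence intervals were calculated with limma 3.58.1 in R 4.3.3 (an intercept fitted by lmFit, variances moderated by eBayes), which was tested on simulated data. The simulation gave every gene the same SD, unlike the arrays, so it does not cover differences in variance between genes. The fit shares variance over all genes. Other steps used Python 3.11.15 with numpy 2.4.6, pandas 2.3.3 and matplotlib 3.10.9. The text names all 10 genes, the variable genes of each further list where they are 5 or fewer and otherwise the 3 with the largest SD, the least variable gene, pericentral and periportal endothelial genes, direct partners of the ligands, and the 3 nearest profiles of Stab2 and Wnt2. Other genes were named after their values were seen. The 10 genes and the lists were chosen with earlier results of these data known. Alternatives were centring on the median, quantile normalization, the mean of probe sets, other limits and folds, no filter, and leaving out each mouse.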

Additional observations from a re-analysis of the deposited data

How the results depend on the processing

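The mean levels of the 10 genes moved by less than their SD in all alternatives run, except Clec4g, which stood at 6.91 as the mean of both its probe sets. Most of this was fixed in advance. Leaving out 1 of 4 mice cannot move a mean by its SD, and centring shifts the mean of every gene equally. The mean of probe sets could change only Clec4g, the single gene of the 10 with 2 probe sets. All 10 genes stayed above background except with the limit at the 99th percentile, where Wnt2 was lost and 9 remained. The number of variable genes among the 10, which was 1, was 2 when each array was centred on its median, 0 at 2-fold, 6 when more than 25% above the lowest mouse was enough, and 0 to 1 when each mouse was left out in turn, with 0 without mouse 1 and without mouse 2. Among the 12254 genes above background, 1581 or 12.9% were variable, and 1966 or 16% with each array centred. Of the same 12254 genes, 138 were variable at 2-fold and 6642 with the limit of 25%. With centring and at both of these limits, the count of the 10 genes moved in the same direction. When low values were kept, 3749 of all 19938 genes were variable. Leaving out each mouse gave 343 to 1293 variable genes, or 2.69% to 10.5%, with 343 being the count without mouse 1. The median SD of the 10 genes, 0.15, was 0.17 when each array was centred and 0.15 to 0.16 when a mouse was left out. The median difference in mouse 2 turned from 0.02 to -0.03 without mouse 1, and that in mouse 4 from 0.04 to -0.05 with the mean of probe sets. The causes were not tested, and leaving out a mouse narrows a range by construction. The range of Lyve1 and the counts of the further lists under other settings were added after seeing the data. No paired analysis was possible because there is only 1 group. Signal near background limits Wnt2 most.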
